A study of Homo sapiens with 7 samples.

Results

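The step from Day 1 to Day 2 of JMJD3c induction was compared in human embryonic stem cells (hESCs). The comparison uses 2 of the 7 RNA-seq libraries of the series, and its members are the 20187 of 22670 listed gene entries that lie on chromosomes, matched between the libraries by identifier and position. JMJD3c is the catalytic part of JMJD3, an enzyme that demethylates histones, and SEES-3 hESCs, an established line, carried it as an HA-tagged form with a nuclear localization signal. A Tet-responsive element drove it from a piggyBac insertion that also held IRES-βgeo, in cells that constantly express the reverse Tet-transactivator, and doxycycline (Dox) at 1 µg/ml was in the medium at both days. The cells grew without feeders in a medium that maintains undifferentiated hESCs. The later libraries of the same cells (Days 3 and 4 of Dox) and those of JMJD3c mut-hESCs, which carry a form with a point mutation in the catalytic domain (without Dox, and at Day 4 of Dox), are given beside the values. The cells come from puromycin-selected stable clones, and the labels do not say whether a library came from 1 clone or several.

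Each condition had 1 library, so the differences have no replicate check and no p-value is given. Values are FPKM, fragment counts scaled by exon length and by the number of mapped reads, and the intervals in brackets are the 95% bounds that Cufflinks gave for the estimate within 1 library; they do not cover variation between cultures. A gene was called higher if its ratio exceeded 2 and its Day 2 value 4 FPKM, and lower if its ratio was under 0.5 and its Day 1 value over 4 FPKM. Here rose and fell are used only of such genes. The intervals were called apart when they did not overlap. Depth was estimated from the steps between low values at 5310000 reads for Day 1 and 6460000 for Day 2.

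Trimethylation of histone H3 at lysine 27 (H3K27me3) is placed by Polycomb complexes on silent developmental genes, and JMJD3 removes it. During gastrulation, NODAL and Wnt signals switch on the T-box factors EOMES and brachyury (T) and the homeobox factor MIXL1 in cells of the primitive streak, from which mesoderm and endoderm arise. Human pluripotent cells rely strongly on glycolysis, and many glycolytic genes are also targets of hypoxia-inducible factors.

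KDM6B, the gene of JMJD3, was listed at 158 FPKM (150 to 167) at Day 1, 212 (203 to 222) at Day 2, 248 at Day 3 and 282 at Day 4. The mutant line held it at 2.40 without Dox and 454 with Dox. Reads of the introduced domain are counted in this gene, so the transgene and the endogenous gene cannot be told apart in these values. The paper reports that endogenous JMJD3 was raised by Dox in JMJD3c-hESCs. The listed level was thus high at Day 1 already, and it was 1.34-fold higher at Day 2, below the cutoff.

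Between Day 1 and Day 2, 212 genes rose and 273 fell, which is 2.08% and 2.68% of the 10182 genes over 4 FPKM at either day. With the intervals also apart, 53 genes rose (0.521%) and 55 fell (0.54%). The 53 included the streak and endoderm regulators EOMES, MIXL1, T, SP5 and FOXA2 and the secreted antagonists CER1 and DKK4, beside genes of other kinds and entries that overlap another entry. Those that fell included several genes of the hypoxia response, beside many entries that overlap another entry. The median log2 ratio over 9285 genes above 4 FPKM in both libraries was -0.0038, so the libraries had nearly the same scale. In bulk RNA, fewer cells with a transcript and less of it per cell cannot be told apart.

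**Figure D1:**
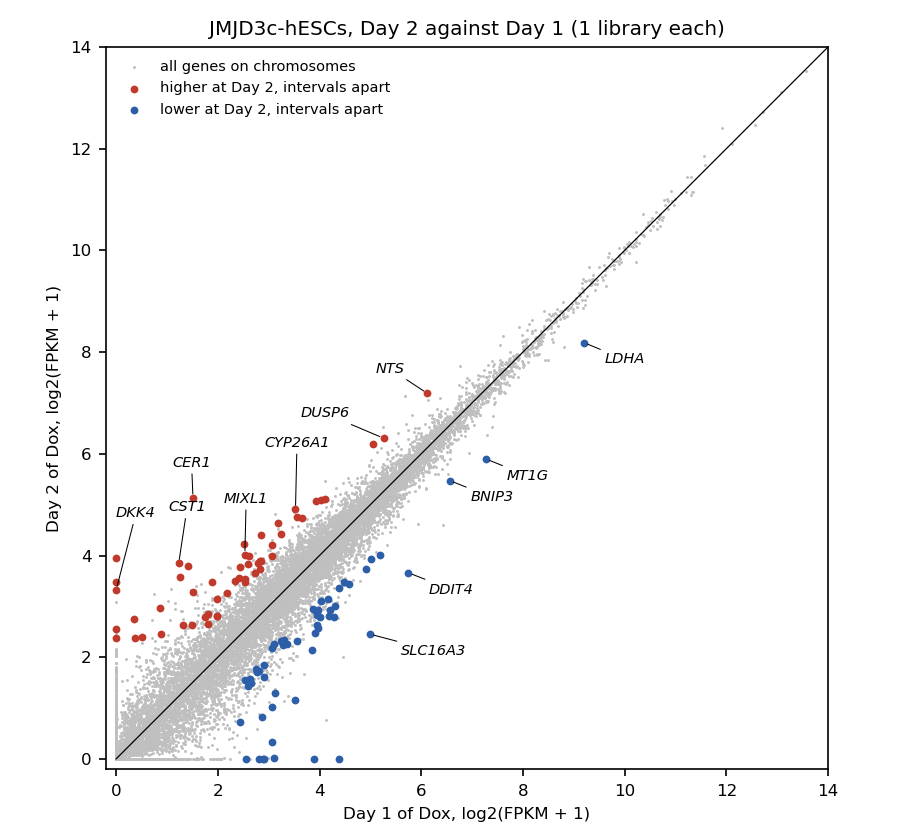
Each point is a gene, with log2(FPKM + 1) at Day 1 on the x axis and at Day 2 on the y axis, 1 library each; red and blue mark the 53 genes that rose and the 55 that fell with intervals apart, and the line marks equality. CER1, CST1 and DKK4 stand far above the line at low Day 1 levels, while LDHA and BNIP3 lie below it at high levels.

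CER1 (chr9:14719722-14722715 in hg19), a secreted antagonist of NODAL, BMP and Wnt ligands, was listed at 1.85 FPKM (0.617 to 3.39) at Day 1 and at 34.0 (24.0 to 38.8) at Day 2, 18.4-fold higher. It was listed at 84.1 at Day 3 and 134 at Day 4, against 1.62 and 0.924 in the mutant line without and with Dox. Among genes with intervals apart it had the second largest log2 change of those that rose, 3.62, behind a read-through entry described below. The libraries of Days 2, 3 and 4 were all above both mutant libraries and Day 1, and Day 1 was close to the mutant libraries.

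EOMES (chr3:27757440-27764206), a T-box factor needed for endoderm formation, was listed at 1.39 FPKM (0.317 to 2.47) at Day 1 and 10.9 (8.53 to 13.2) at Day 2, then 22.0 and 38.2 at Days 3 and 4. In the mutant line it was at 0.257 without Dox and 0.196 with Dox. MIXL1 (chr1:226411319-226414755) was listed at 4.79 FPKM (2.46 to 7.18) at Day 1 and 15.2 (11.9 to 18.6) at Day 2, a 3.17-fold rise, then 23.5 and 41.0. MIXL1 differed from CER1 and EOMES in the mutant line, where it was at 6.35 without Dox and 3.29 with Dox, levels on either side of its Day 1 value.

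Brachyury, T in the files (chr6:166571144-166582188), was listed at 2.68 FPKM (0.290 to 5.13) at Day 1 and 10.2 (6.91 to 13.5) at Day 2, then 22.4 and 23.6. SP5 (chr2:171571861-171574588), a zinc finger factor that is a direct Wnt target, was listed at 0.819 (0.184 to 1.48) and 6.78 (4.58 to 8.85), then 11.4 and 28.2. Both were below 1 FPKM in the mutant line with and without Dox. Their intervals at the 2 days were apart, and they thus moved in the same step as EOMES and MIXL1.

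The list of 16 primitive streak transcription factors held 4 genes that rose, EOMES, MIXL1, T and SP5, all with intervals apart, and none that fell. Over all 16, 7 were listed higher at Day 2, 7 lower and 2 at 0 at both days, with a median log2 fold change of 0.00, the same as the median over all entries. The 9 members above 1 FPKM at either day had a median of 1.40, with 6 higher and 3 lower; a member can enter this set through its Day 2 level alone. GSC, an organizer homeobox factor, was listed at 0.710 FPKM (0 to 1.49) and 3.53 (1.48 to 5.42), with intervals that overlapped narrowly. LHX1 was listed at 4.21 and 6.42, FOXH1, a partner of SMAD proteins in NODAL signalling, at 43.6 and 34.4, and ZIC2 at 73.9 and 68.2.

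**Figure D2:**
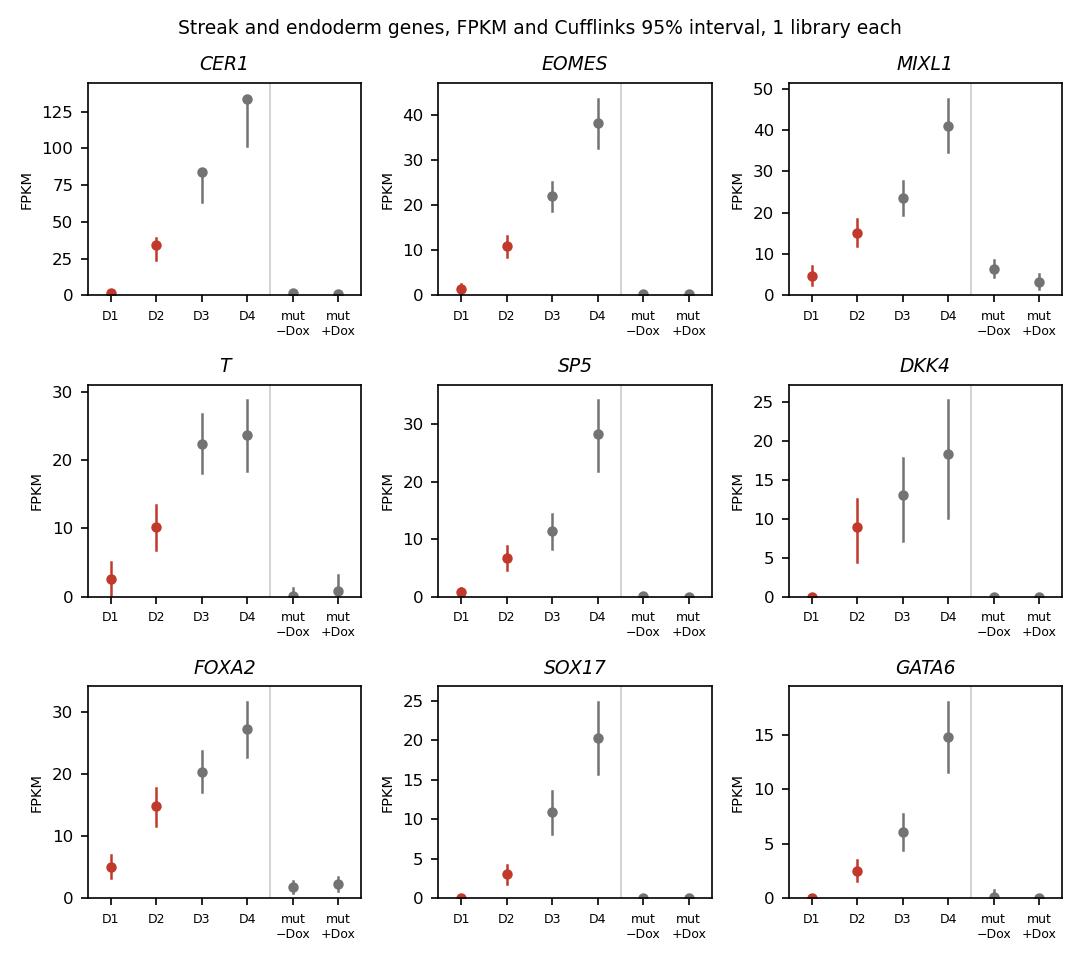
FPKM with Cufflinks 95% intervals for 9 streak and endoderm genes, by library (D1 to D4 are days of Dox; mut is the mutant line), with Days 1 and 2 in red and the other libraries in grey. CER1 was at 1.85 at Day 1 and 34.0 at Day 2, and SOX17 and GATA6 were listed at 0 at Day 1; all 9 were higher at Day 4 than at Day 2, and some estimates lie at the edge of or above their own interval.

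Endoderm genes were listed higher at Day 2 more widely: of 18, 15 were higher, 2 lower and 1 at 0 at both days, with a median log2 fold change of 0.54. Of all 20187 entries, 7693 were higher and 8052 lower. The endoderm list was chosen with earlier results of these data known, so its counts and median are not independent support. Its 5 called members were FOXA2, HAS2, SHISA2, CST1 and APOA2. FOXA2, a forkhead factor of endoderm and axial mesoderm, rose from 5.12 FPKM (3.24 to 6.99) to 14.8 (11.7 to 17.8). HAS2, a hyaluronan synthase, rose from 4.04 to 10.3, and SHISA2, an inhibitor of Wnt and FGF receptor maturation, from 2.96 to 7.82. CST1, a secreted cystatin protease inhibitor, rose from 1.35 (0 to 4.61) to 13.4 (7.79 to 19.1) and reached 45.6 and 62.5 on the next days. CST1 belongs to a family of near-identical genes on chromosome 20, so the division of reads among them is uncertain. APOA2 also passed the ratio, from a listed 0 to 4.33, but its Day 2 interval ran from 0 to 24.0, and it overlaps another entry.

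SOX17 and GATA6, factors of definitive endoderm, had intervals apart but stayed under 4 FPKM and were not called; they were chosen for mention after their values were seen. SOX17 was listed at 0 at Day 1 and 3.05 (1.86 to 4.24) at Day 2, then 10.9 and 20.3. With a floor of 3 reads at Day 1, or 0.263 FPKM, its Day 2 estimate was 11.6-fold above that floor. GATA6 was listed at 0 and 2.52 (1.57 to 3.48), an estimate 15.3-fold above its floor of 0.165 FPKM, then 6.11 and 14.8. These folds use the Day 2 estimate and not its lower bound. An interval of 0 to 0 adds no uncertainty to such a comparison, and the floors cover counting error only. SOX17 was listed at 0 in both mutant libraries, and GATA6 at 0.147 without Dox and 0 with Dox. Other members stayed close: CXCR4, a receptor on definitive endoderm, was listed at 1.27 and 1.47 FPKM at Days 1 and 2 and at 14.1 at Day 4, while HHEX was listed at 1.54 and 1.83.

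Later mesoderm genes were not listed higher as widely: of 19, 6 were listed higher, 5 lower and 8 at 0 at both days. Only 3 of the 19 exceeded 4 FPKM at either day and could be called, against 8 of the 18 endoderm genes. None of the 3 was called in either direction. KDR, a VEGF receptor, was listed at 9.06 FPKM (7.52 to 10.6) at Day 1 and 5.51 (4.42 to 6.60) at Day 2, with intervals apart and a ratio short of the cutoff. TBX5, a cardiac T-box factor, was listed at 3.82 and 6.74, with overlapping intervals.

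Among secreted regulators, the Wnt antagonist DKK4 was listed at 0 FPKM at Day 1 and 8.98 (4.51 to 12.5) at Day 2. Its floor of 3 reads at Day 1 was 0.812 FPKM, and the Day 2 estimate was 11.1-fold above that floor. DKK4 was listed at 13.03 and 18.4 on the next days and at 0 in both mutant libraries. Of 56 Wnt pathway genes, 3 rose (SP5, DKK4 and CER1) and none fell, while 29 were listed higher and 22 lower, with a median of 0.07. SFRP1, a secreted Wnt antagonist, was listed at 36.0 (31.9 to 40.0) and 68.0 (63.0 to 73.1), with intervals apart and a ratio just short of 2. None of the receptors and intracellular components on the list was called. AXIN2, a widely used Wnt target, was listed at 15.3 and 13.2, CTNNB1, the gene of β-catenin, at 192 and 212, and SFRP2 at 129 and 133.

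The NODAL list gave CER1 and FST as the genes that rose among 20, with 12 listed higher, 7 lower and a median of 0.03. FST, the gene of the activin antagonist follistatin, was listed at 3.24 FPKM (1.13 to 6.01) and 8.08 (4.48 to 11.7), with overlapping intervals. The ligand NODAL itself was listed at 56.6 (48.1 to 65.1) and 45.0 (38.4 to 51.5), and its co-receptor TDGF1 at 186 (172 to 202) and 146 (134 to 157), the latter with intervals apart downward. The inhibitors LEFTY1 and LEFTY2 were listed at 43.3 and 45.5 FPKM, and at 8.54 and 12.3. These 2 genes are near-identical copies, so the split between them is uncertain. In the BMP list of 28 genes the antagonist CHRD rose from 1.65 to 4.98 and ID4 from 2.10 to 4.35, both with overlapping intervals, and none fell. The BMP target ID3 was listed at 70.1 and 107 with intervals apart. Antagonists of all 3 pathways were thus among the genes that rose, but of the antagonists on these lists only CER1 and DKK4 had intervals apart. Others, such as LEFTY1 and SFRP2, were not called, and the ligands on these lists did not rise.

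In the FGF list of 24 genes, 16 were listed higher and 8 lower, with a median of 0.22. DUSP6, a phosphatase that switches off ERK and is induced by it, rose from 37.4 FPKM (30.1 to 44.7) to 78.1 (65.4 to 90.6), then 117 and 87.3. The mutant line held it at 89.1 without Dox and 87.2 with Dox, so Day 1 was the low value among these 6 libraries. FGF11, which encodes an FGF homologue that is kept inside the cell, fell from 13.4 (9.83 to 17.1) to 3.41 (1.32 to 5.49). EGR1, an immediate early factor downstream of ERK, rose from 2.94 to 6.03 with intervals apart, and IL17RD, a feedback inhibitor of FGF signalling, was listed at 13.3 and 19.8, short of the ratio.

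Of 16 retinoic acid genes, CYP26A1 and RXRA rose and none fell. CYP26A1, the enzyme that degrades retinoic acid, rose from 10.5 FPKM (7.58 to 13.6) to 29.0 (24.5 to 33.5), then 35.5 and 48.8, against 4.40 and 2.27 in the mutant line. RXRA, a nuclear receptor partner, rose from 4.79 to 10.2, with 8.83 in the untreated mutant line. The binding protein CRABP1 was listed at 347 and 229, and both estimates lie above their own intervals, so its size is uncertain. The list as a whole had 5 genes higher and 10 lower.

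Under the cutoffs, 10 genes started in this step (rose with intervals apart from under 1 FPKM at Day 1) and 10 stopped (fell with intervals apart to under 1 FPKM at Day 2), each 0.0982% of the genes tested. The 10 that started were DKK4, SP5, JOSD2, SYNC, CXCL3, TM9SF1, RSC1A1, TGIF2-C20orf24, RP11-598P20.5 and AP000783.1. Of these, 5 overlap another entry, and DKK4, SP5, JOSD2, CXCL3 and AP000783.1 do not. RSC1A1 carried the Cufflinks flag for low data.

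DKK4 and SP5 continued upward on the next days, while others that started did not. CXCL3, a chemokine, was listed at 0.430 FPKM (0 to 1.05) and 4.27 (1.73 to 6.64), then 1.67 and 2.35. JOSD2, a deubiquitinase, was listed at 0 and 4.87 (1.33 to 8.45), an estimate 5.46-fold above its floor, but at 1.45 and 4.37 in the mutant line. SYNC, an intermediate filament protein of muscle, was listed at 0.275 and 5.71 FPKM, then at 0.00343 at Day 3, with 2.69 in the untreated mutant line. Of all 10, 5 were above 4 FPKM at Day 3 and 4 at Day 4. Of all 53 that rose with intervals apart, 43 were above 4 FPKM at Day 3 and 43 at Day 4, against 27 and 28 in the mutant line without and with Dox. These genes were selected by a Day 2 value over 4 FPKM in the JMJD3c line itself. That favours the later libraries of this line, so these counts are not like measures. No share over all genes is set beside them.

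The genes that stopped were mostly entries that lie on the same bases as another. At Day 3, 5 of the 10 were above 4 FPKM again, and at Day 4, 2 were; AP000275.65 was listed at 7.60 and 0.0111 FPKM at Days 1 and 2 and at 12.3 at Day 3. The 10 were AC087645.1, AP000275.65, AC008443.1, NXPH4, HIST2H2AC and 5 read-through entries. Of these, 8 overlap another entry, and the 5 are read-through transcripts that join neighbouring genes: RPL36A-HNRNPH2, RNF103-CHMP3, TVP23C-CDRT4, ISY1-RAB43 and TRIM39-RPP21. Among the 10182 genes tested, 29.1% overlap another entry and 20 are read-through entries. For these, the sum over the joined entry and its component genes moved far less than the joined entry. ISY1-RAB43 fell from 7.37 to 0.258 FPKM while RAB43 rose from 4.34 to 10.7, and the 3 entries summed to 29.5 and 24.5. RNF103-CHMP3 fell from 6.50 (2.31 to 10.7) to 0.00126 (0 to 1.37) while CHMP3 rose from 5.90 to 13.5, with sums of 15.0 and 16.3. TVP23C-CDRT4 and its genes summed to 11.5 and 11.8, RPL36A-HNRNPH2 and its genes to 72.9 and 65.6, and TRIM39-RPP21 and its genes to 43.4 and 53.3.

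The same holds for the entry with the largest rise. TGIF2-C20orf24 was listed at effectively 0 (0 to 0.817) at Day 1 and 14.4 (7.10 to 21.3) at Day 2, while TGIF2 was listed at 38.5 and 34.5 and C20orf24 at 49.3 and 42.1. The 3 entries summed to 87.9 and 91.0 FPKM. The joined entry was listed at 5.89 at Day 3 and at effectively 0 at Day 4. In the mutant line it was at effectively 0 without Dox and at 14.6 with Dox. The 3 entries lie on the same bases, so a change in how reads were divided and a change in a single transcript cannot be told apart. The largest listed fall, AC087645.1, from 19.8 (11.4 to 27.9) to 0.00219 (0 to 0.608), also lies on another entry and was at 12.7 in the untreated mutant line. RP11-343C2.11 and CCDC121, also among the 12 largest falls, overlap other entries too and were listed at 10.4 and 1.23 FPKM and at 7.36 and 1.02.

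NXPH4 and HIST2H2AC were the genes that stopped without overlapping another entry. NXPH4 (chr12:57610578-57620232), a secreted neurexophilin, fell from 6.32 FPKM (3.95 to 8.52) to 0.775 (0.172 to 1.38), 8.16-fold, and was listed at 1.81 and 1.79 on the next days. HIST2H2AC, a histone H2A gene, was listed at 6.41 (0.858 to 11.2) and 0, and then at 5.37 and 0. Its Day 1 estimate was 4.06-fold above the floor of 3 reads at Day 2, 1.58 FPKM, but its lower bound was below that floor. Its neighbours in the histone family are near-identical and most histone transcripts lack a poly(A) tail, so its values in poly(A) libraries are uncertain. NXPH4 was at 1.53 in the mutant line without Dox and at 0.195 with Dox, below its own Day 1 value.

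Genes of the hypoxia response were among the other large falls. DDIT4 (chr10:74033678-74035794), an inhibitor of mTORC1 induced by hypoxia and stress, fell from 52.7 FPKM (41.4 to 59.2) to 11.6 (8.17 to 15.1), 4.52-fold, and was listed at 11.3 and 11.9 at Days 3 and 4. In the mutant line it was at 42.4 without Dox and 9.08 with Dox. SLC16A3, the lactate exporter MCT4, fell from 30.7 (20.6 to 40.7) to 4.48 (2.39 to 9.90), then 12.1 and 4.45, though it overlaps another entry. In the mutant line SLC16A3 was at 8.72 without Dox and 6.35 with Dox, so Day 1 was the highest of these libraries. STC1, a secreted glycoprotein, fell from 17.2 (13.9 to 20.6) to 5.99 (4.47 to 7.52), and EGLN1, the oxygen sensor that marks hypoxia-inducible factors for destruction, fell from 7.61 to 3.78.

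LDHA (chr11:18415935-18429972), which makes lactate from pyruvate, fell from 586 FPKM (542 to 630) to 291 (264 to 317), then 242 and 238. BNIP3 (chr10:133781578-133795435), a mitochondrial protein of hypoxic autophagy, fell from 93.1 (80.6 to 106) to 43.5 (35.9 to 51.1), then 35.2 and 27.6. Both lie just past the ratio, at 0.496 and 0.467. In the mutant line LDHA was at 524 without and 341 with Dox, and BNIP3 at 68.5 and 23.4, so the Dox-treated mutant library was below its untreated partner in both.

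Of 23 glycolysis genes and linked hypoxia targets, 22 were listed lower at Day 2 and 1 higher, with a median log2 fold change of -0.30 against 0 over all entries. The exception, CA9, was below 1 FPKM at both days. LDHA, BNIP3 and VEGFA fell and none rose; VEGFA, listed at 11.6 (7.73 to 24.7) and 5.79 (4.17 to 16.5), had overlapping intervals. In 13 of the 23 the intervals were apart downward at any ratio, against 1.57% of the 12880 genes above 1 FPKM. Highly expressed genes have narrow intervals, so these shares are not like measures. Among other members with high FPKM, GAPDH was listed at 2581 and 2267, ENO1 at 1194 and 876, ALDOA at 792 and 630, and PKM at 490 and 475, none of them past the ratio. PGK1, which makes ATP in the lower part of the pathway, was listed at 447 (420 to 475) and 273 (254 to 291). The glucose carriers SLC2A1 and SLC2A3 were listed at 77.5 and 52.4, and at 224 and 181.

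A list of 23 hypoxia response genes, written after these values had been seen and sharing members with the glycolysis list, had 22 listed lower and a median of -0.70. Of these, 10 fell, 5 with intervals apart: SLC16A3, DDIT4, STC1, BNIP3 and EGLN1. PFKFB3 and PFKFB4, which set the level of a glycolytic activator, were listed at 15.8 and 6.76 and at 8.17 and 2.48, with overlapping intervals. The collagen hydroxylase P4HA1 was listed at 29.8 (25.3 to 34.3) and 18.6 (15.4 to 21.8). In the mutant line with Dox against without, 19 of the 23 glycolysis genes and 17 of the 23 hypoxia genes were listed lower, with medians of -0.17 and -0.35. This was not particular to these lists: 35 of 38 pluripotency genes and 42 of 61 ribosomal protein genes were also listed lower there. In the immediate early and stress list of 30, 20 were listed higher and 9 lower. The share over all entries is not given here. The part of Dox itself in the step from Day 1 to Day 2 was not tested.

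The bases just upstream of 5 of these genes are printed for reference, since the genes that rose include Wnt-linked genes and those that fell include hypoxia-linked ones. They are the 250 bases before the RefSeq start on GRCh38.p14, a later build than the hg19 of the files, on the strand of the gene; CER1 is shown because it leads the rise. The motifs were chosen after the values were seen and searched on both strands: GGTGTGA for T-box factors, CTTTGAT for TCF/LEF factors of Wnt signalling, and ACGTG, the core of the hypoxia response element, which also occurs inside the E-box CACGTG. Capitals mark matches of any of the 3.
CER1, chr9:14722734-14722983 (minus strand): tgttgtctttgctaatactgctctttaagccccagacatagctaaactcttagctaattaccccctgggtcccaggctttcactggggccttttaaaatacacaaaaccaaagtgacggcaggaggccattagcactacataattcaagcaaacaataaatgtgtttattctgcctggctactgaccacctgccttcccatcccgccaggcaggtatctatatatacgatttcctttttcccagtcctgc
SP5, chr2:170715087-170715336 (plus strand): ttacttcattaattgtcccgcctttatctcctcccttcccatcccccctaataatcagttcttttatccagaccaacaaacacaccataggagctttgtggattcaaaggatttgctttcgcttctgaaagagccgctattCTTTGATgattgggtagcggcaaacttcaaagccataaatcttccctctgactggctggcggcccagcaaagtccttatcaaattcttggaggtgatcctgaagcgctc
LDHA, chr11:18394313-18394562 (plus strand): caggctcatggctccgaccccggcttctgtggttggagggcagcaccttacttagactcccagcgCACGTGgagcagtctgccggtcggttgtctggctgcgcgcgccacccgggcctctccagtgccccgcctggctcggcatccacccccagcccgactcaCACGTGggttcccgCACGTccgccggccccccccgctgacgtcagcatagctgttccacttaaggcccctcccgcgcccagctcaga
BNIP3, chr10:131981924-131982173 (minus strand): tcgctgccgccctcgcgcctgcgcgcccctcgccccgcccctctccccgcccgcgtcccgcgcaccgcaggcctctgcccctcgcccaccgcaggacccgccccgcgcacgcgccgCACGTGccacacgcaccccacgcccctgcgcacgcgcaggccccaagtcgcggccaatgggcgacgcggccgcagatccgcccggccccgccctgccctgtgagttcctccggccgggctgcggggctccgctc
DDIT4, chr10:72273674-72273923 (plus strand): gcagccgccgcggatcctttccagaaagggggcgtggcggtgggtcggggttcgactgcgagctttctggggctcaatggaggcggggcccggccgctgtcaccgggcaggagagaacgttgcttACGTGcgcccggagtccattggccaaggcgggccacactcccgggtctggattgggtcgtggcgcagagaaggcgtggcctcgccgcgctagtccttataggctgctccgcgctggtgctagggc
SP5 held CTTTGAT 109 bases before its start, LDHA, BNIP3 and DDIT4 held ACGTG, and CER1 held none of the 3. Among all 27305 promoters of this length, whether or not their genes were expressed here, ACGTG was in 18.5%, CTTTGAT in 2.29% and GGTGTGA in 2.71%. Of the 55 genes that fell with intervals apart, 35 had a promoter in the table and 11 of these (31.4%) held ACGTG; of the 53 that rose, 37 had one and 6 of these (16.2%) held it. For the glycolysis list it was 10 of 21 (47.6%), and for the hypoxia list, which shares members with it, 8 of 18 (44.4%). The 3 hypoxia-linked promoters printed, which all held ACGTG, thus do not stand for their list. CTTTGAT was in 2 of the 37 promoters of genes that rose and in 0 of the 35 of genes that fell, and GGTGTGA was in 0 of either set. A match is a run of letters and not a bound site, and these shares were not tested.

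Pluripotency genes gave few calls in this step. Of 38, none rose and 1, DPPA2, fell, from 11.1 FPKM (6.78 to 15.4) to 5.52 (3.14 to 7.85), with overlapping intervals; 23 were listed lower and 15 higher, with a median of -0.09. POU5F1 was listed at 765 (724 to 807) and 684 (653 to 721), NANOG at 99.7 (87.5 to 112) and 84.3 (76.0 to 92.7), and SOX2 at 107 at both days. LIN28A was listed at 471 and 454. Intervals were apart downward in POU5F1, TDGF1, TET1 and UTF1. UTF1, a chromatin protein of undifferentiated cells, differed most in ratio among these, at 83.7 and 50.7, then 39.0 and 21.5. The markers of hESCs were thus high in both libraries, as the cell type label states.

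Most markers of other lineages stayed low or near their Day 1 level. Of 31 neuroectoderm genes, 13 were listed higher and 12 lower. POU3F1 fell, from 4.81 to 1.94 FPKM with intervals apart, and 1 other had intervals apart upward without being called. SOX1 was listed at 0.480 and 1.03. Of 20 trophoblast and amnion genes, only 2 exceeded 4 FPKM at either day and could be called, and none was. Of 12 fibroblast genes, 4 were at 0 at both days, with DCN, LUM and COL3A1 among them, and the list summed to 264 and 261 FPKM, mostly from TAGLN and THY1. Of 10 blood and endothelial genes, 6 were at 0 at both days, with PTPRC and HBB among them, and the sum was 3.20 and 2.17.

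Other groups showed few or no called genes. None of 41 cell cycle genes, 61 ribosomal protein genes, 29 oxidative phosphorylation genes, 24 cholesterol synthesis genes or 20 p53 target genes was called. Of these, 36, 61, 29, 24 and 16 exceeded 4 FPKM at either day and could be called. No gene of the 39 in the HOX list exceeded 4 FPKM at either day, so none could be called, and 24 were at 0 at both days. None of 26 Polycomb and H3K27 demethylase genes was called, with KDM6B the only one whose intervals were apart; EZH2, the methyltransferase of the complex, was listed at 31.8 and 29.2 and SUZ12 at 12.4 and 12.3. Of 22 Notch pathway genes 15 were listed lower and 6 higher, with a median of -0.23 and none called. Of 30 immediate early and stress genes, EGR1 rose and DDIT4 fell, and of 23 extracellular matrix genes COL5A1 fell, from 5.18 to 2.33 FPKM with overlapping intervals. Of 25 adhesion genes none was called, but VIM, the mesenchymal intermediate filament, was listed at 108 (97.5 to 119) and 211 (197 to 226), and CDH2, N-cadherin, at 16.5 (11.4 to 21.7) and 30.0 (22.4 to 37.7). CDH1, E-cadherin, was listed at 95.4 and 89.8. VIM was at 413 and 704 on the next days, and at 44.1 and 138 in the mutant line without and with Dox.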

How the data were processed

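Poly(A) RNA of 2 libraries was analysed, the Day 1 and Day 2 libraries of JMJD3c-hESCs, and 4 others are given beside them. Per the labels and the methods of the study, the authors sequenced 150-base single-end reads on a MiSeq, mapped them to hg19 with TopHat 2.0.13, and deposited FPKM values per gene, with interval bounds, from Cufflinks 2.1.1; the labels also name CASAVA 1.4. The deposited FPKM hold no read counts. Depth was therefore estimated from whole-read steps in genes with 1 exon and 1 transcript, 48 at Day 1 and 43 at Day 2, where 60.4% and 83.7% of values lay within 0.1 of a whole read. The library kit is directional, but whether Cufflinks used the strand is not given in the sources used here, so overlapping entries can share reads. Between 123 and 140 entries per library have an FPKM outside their own interval, and 35 are marked as low data. Log2 fold changes used a pseudocount of 1, which understates the change of low genes; ratios used none.

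The named genes are CER1, EOMES and MIXL1, KDM6B, the 12 largest rises and falls, every gene that started or stopped, called members of 25 gene lists and up to 4 other members each. Genes outside this rule (such as SOX17, GATA6, VIM, PGK1, CRABP1 and the hypoxia list) were chosen after their values were seen. The members and lists were chosen with earlier results of these data known. No test was made, because each side is 1 library. Calculations used Python 3.11.15, numpy 2.4.6, pandas 2.3.3 and matplotlib 3.10.9. On simulated data for Day 2 against Day 1 with 20187 genes, 200 of 200 genes changed 4-fold were called and 0 unchanged genes were. The changed genes were drawn well above the 4 FPKM cutoff, and only counting error was simulated. Genes that rose here had medians of 2.88 FPKM at Day 1 and 8.07 at Day 2. The simulation thus checks the calling rule and does not measure the error among these calls. The cutoffs, pseudocount, scaling, GC content and treatment of entries were varied.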

Additional observations from a re-analysis of the deposited data

How the results depend on the processing

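The count of genes that rose (212) was 568 with a cutoff of 1 FPKM, 75 with 10 FPKM, 64 at a fold of 3, 53 with intervals apart, and 131 without entries that overlap another entry, an alternative chosen after seeing the data. The count that fell (273) was 731, 92, 89 and 55 under the first 4 of these. The 10 genes that started became 33 and 2 with cutoffs of 1 and 10 FPKM, 2 when Day 1 had to be listed at 0, 21 without the intervals and 5 without overlapping entries. The 10 that stopped became 23 and 2, 1, 28 and 2 in the same order. Rescaling Day 2 by the median ratio or upper quartiles and correcting for GC content kept the same 10 genes in both sets. Of the recalculated values of lists and named genes, 124 stayed close and 70 moved. The change of sign among them was in the median of the immediate early and stress list, 0.01 over all members and -0.04 over those above 1 FPKM. Over members above 1 FPKM, 7 list medians also left 0, among them 1.40 for streak factors, -0.39 for HOX genes, -0.27 for later mesoderm and -0.26 for trophoblast and amnion genes; a member above 1 FPKM at Day 2 alone passes that filter. No library could be left out, and no paired analysis was possible because each condition had 1 library. With 1 library a side, culture-to-culture variation is not measured, and below about 1 FPKM few reads lie behind a value.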

Other observations

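Several genes were highest at Day 2 among the 4 Dox-treated JMJD3c libraries, and they were chosen after their values were seen. GEN1, a resolvase of recombination intermediates, had 5.07, 13.2, 5.63 and 6.46 FPKM at Days 1, 2, 3 and 4, though it overlaps another entry. MRPL17, a mitochondrial ribosomal protein, was listed at 4.68, 17.7, 4.77 and 4.41, but at 25.4 and 29.0 in the mutant line without and with Dox. MPDZ, a tight junction scaffold, was listed at 1.66, 12.9, 4.60 and 8.14, with 9.04 and 8.39 in the mutant line. OLIG3, a bHLH factor, was listed at 8.46 (5.80 to 11.1), 20.4 (16.0 to 24.0), 10.3 and 10.1, against 3.15 and 0.313 in the mutant line.

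The next genes were also picked after their values were seen. NTS, the gene of neurotensin, rose from 68.5 FPKM (58.2 to 79.0) to 145 (131 to 159), and was at 171 and 202 on the next days. CHGA, chromogranin A of secretory granules, rose from 3.54 to 8.54 with intervals apart, and CST3, cystatin C, from 16.2 (9.74 to 22.7) to 33.5 (25.1 to 41.9). GAL, the gene of galanin, was listed at 68.9 and 132, below the ratio, and at 236 and 325 on the next days, with Day 2 above its own interval. IL13RA1 and P2RY1, a cytokine receptor and a purine receptor, rose from 6.16 to 13.9 and from 7.36 to 15.0.

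Among the falls, MT1G, a metallothionein with near-identical family members, fell from 153 FPKM (106 to 201) to 58.7 (30.9 to 86.5), and was at 33.0 and 19.5 on the next days, against 26.2 and 38.3 in the mutant line. BARX1, a homeobox factor of pharyngeal and stomach mesenchyme, fell from 17.5 (12.8 to 22.3) to 6.66 (4.01 to 9.28), against 2.68 and 1.95 in the mutant line. Both were higher at Day 1 than in any of the other 5 libraries considered here. Of 24 cholesterol synthesis genes, 20 were listed higher and 4 lower, with a median log2 fold change of 0.09.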
